A study of Mus musculus with 9 samples.

Results

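The mitochondrial ribosomal protein genes were taken as every gene whose symbol is Mrps or Mrpl followed by a number and at most 1 letter, with pseudogenes left out. The rule used names and no measured value. It found 78 genes among 31964 in the table, 29 with Mrps symbols and 49 with Mrpl symbols, spread over 17 chromosomes. The study sequenced RNA from mouse liver in 9 libraries that fall into groups named M, A-C and C, with 3 libraries each. Its title speaks of testing the compound MgIG in mice with fatty liver caused by alcohol, in an acute and a chronic model, but the labels do not say what the letters stand for. The groups are therefore compared by letter, and no treatment, dose, time or age is assigned to them. All libraries are labelled C57BL6J except C replicate 4, which is labelled C57BL7J.

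Mitochondria carry their own ribosomes, which translate the messages of mitochondrial DNA into core subunits of the respiratory chain and ATP synthase. The ribosomal RNA comes from mitochondrial DNA, while every protein of the small and the large subunit is encoded in the nucleus, made in the cytosol and imported. Some of these proteins descend from bacterial ribosomal proteins and others exist in mitochondria alone. Hepatocytes are rich in mitochondria, and the liver oxidises most ingested ethanol, in part through a mitochondrial aldehyde dehydrogenase.

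By structure, 26 of the members belong to the small subunit and 51 to the large, since Mrps30 and Mrps18a, despite their symbols, encode large subunit proteins. The small subunit members divide into 16 bacterial homologs and 10 mitochondria-specific proteins, and the large subunit members into 30 and 21. Mrps36, the remaining member, encodes a protein now known as a subunit of the oxoglutarate dehydrogenase complex of the citric acid cycle.

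The values are TPM, reads per exon length scaled to a fixed total per library, and were rescaled between libraries by TMM, which sets the typical gene level. Of the 78 members, 77 passed the filter of 1 TPM in at least 3 libraries. Mrpl53, a large subunit gene on chromosome 6, was listed at 0 in all 9 libraries. Reads recovered from the TPM ran between 45597163 and 65165613 per library, of which 98641 to 143299 fell on members. Nothing in the labels says that the libraries came from separate animals, so p-values measure the spread between these samples, which may be technical. The labels call the cells hepatocytes. Hepatocyte markers (8 genes, among them Alb) summed to 78691 to 94832 scaled TPM in M, 80044 to 136570 in A-C and 144589 to 153334 in C, and markers of other liver cells were detected too, none of them at 0 in all libraries. The 8 endothelial markers summed to 71.6 to 103 in M, 141 to 146 in A-C and 48.9 to 78.3 in C. The 8 Kupffer cell markers summed to 204 to 227 in M, 239 to 329 in A-C and 139 to 215 in C. Stellate cell markers summed to 108 to 127 in M, 151 to 181 in A-C and 98.7 to 151 in C, and erythroid markers to 146 to 473 in M, 74.1 to 167 in A-C and 260 to 383 in C. Neutrophil markers had medians of 51.8 in M, 44.2 in A-C and 5.09 in C, with lowest libraries at 4.83 in M, 4.14 in A-C and 1.39 in C. In bulk liver, fewer cells of a type and less RNA per cell cannot be told apart, and the part of cell makeup in the values that follow was not tested.

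The family spanned a wide range of levels in every library. Between 28.3-fold and 68.5-fold separated the highest from the lowest detected member. The 6 highest by mean scaled TPM over the 9 libraries were Mrps21 with 143, Mrpl12 with 114, Mrpl34 with 111, Mrpl14 with 91.1, Mrpl2 with 89.1 and Mrpl52 with 87.9. Mrps21 encodes a bacterial-type small subunit protein, Mrpl12 a stalk protein known to bind the mitochondrial RNA polymerase, and Mrpl2 and Mrpl14 homologs of bacterial core proteins. The 6 lowest that were detected were Mrpl19 with 3.59, Mrps25 with 4.29, Mrps10 with 5.001, Mrpl3 with 5.15, Mrps30 with 5.88 and Mrps35 with 7.18. These levels are per length over the exon lengths in the table, which ran between 607 bases (Mrpl34) and 8631 bases (Mrps35). The 6 highest members have exon lengths of 607 to 1532 bases and the 6 lowest of 5450 to 8631 bases, so the order depends on those models.

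Mrpl12 and Mrpl34, neighbours in this order, did not separate by range. Mrpl12 had 129, 92.7 and 94.6 scaled TPM in M, 144, 117 and 80.2 in A-C and 88.1, 137 and 143 in C. Mrpl34 had 102, 105 and 93.1 in M, 128, 113 and 73.3 in A-C and 105, 137 and 145 in C. The libraries of these neighbours overlap in every group. Mrps21 had 138, 131 and 108 in M, 125, 116 and 101 in A-C and 205, 187 and 174 in C. By range it overlaps both in A-C, overlaps Mrpl12 but lies above Mrpl34 in M, and stands above both in C. Read within single libraries, Mrps21 was above Mrpl12 in every M library, and Mrpl12 was above Mrpl34 in every A-C library.

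Members also differed in how much they varied. The coefficient of variation over the 9 libraries had a median of 15.8% and was largest for Mrps18b at 46.7%, Mrps23 at 36.2% and Mrpl23 at 32.4%. It was 5.20% for Mrpl35, the steadiest, and 7.63% for Mrpl19.

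**Figure D1:**
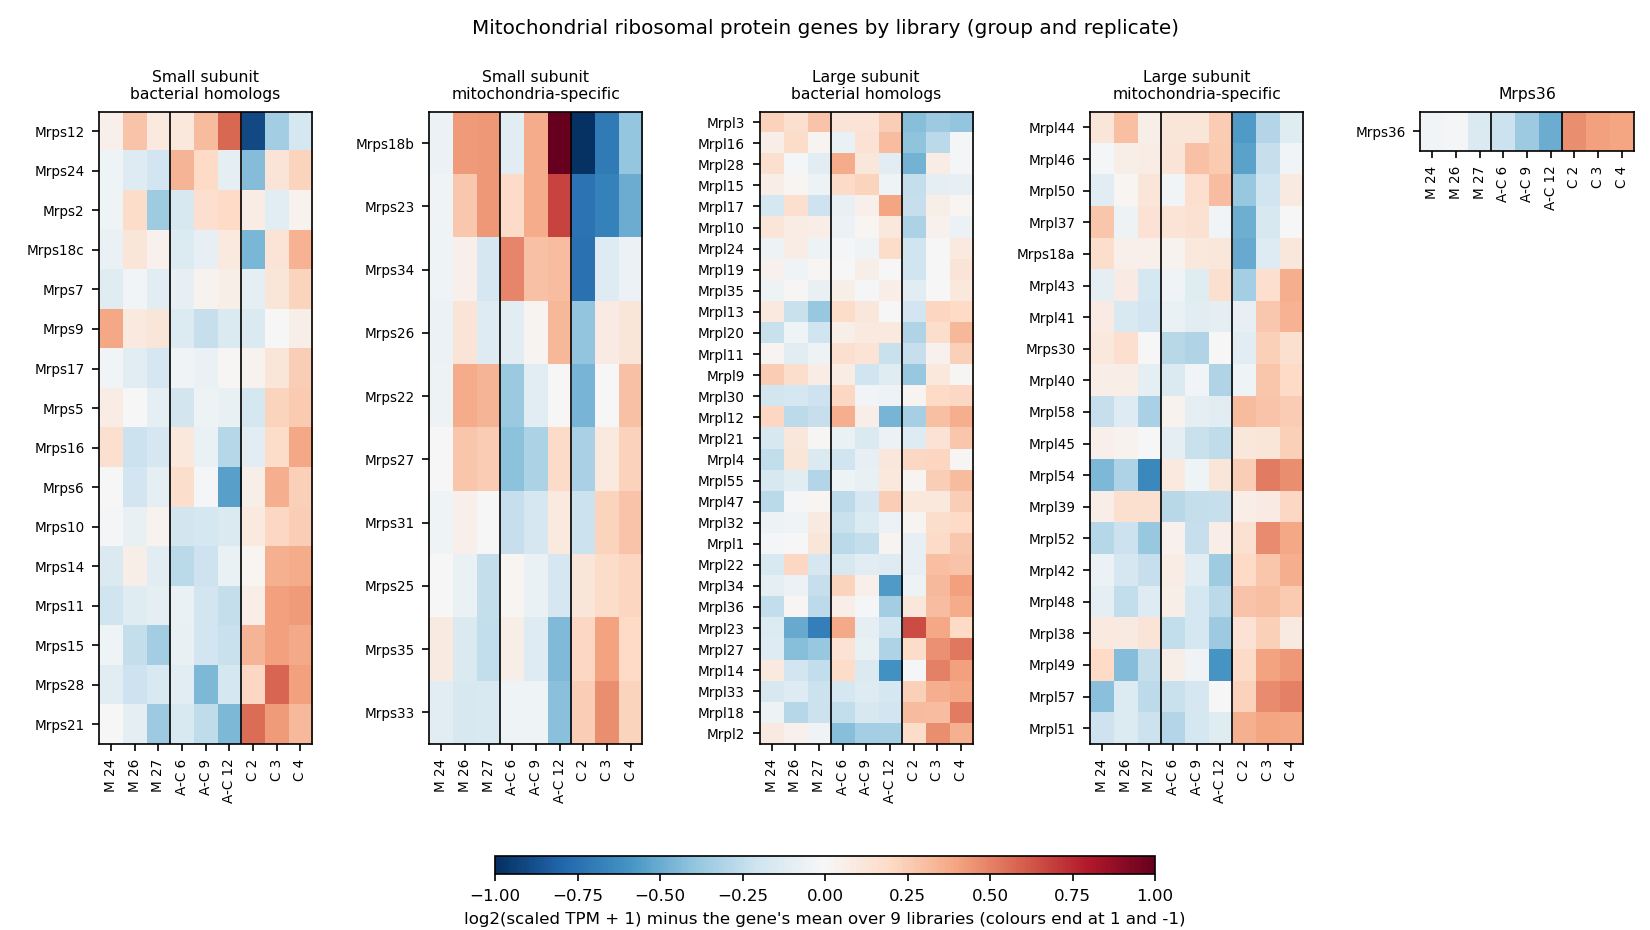
Heat map of the 77 detected members (rows, grouped by subunit and by origin of the protein, with Mrps36 apart) in the 9 libraries (columns: M, A-C, C), coloured by log2 scaled TPM relative to the gene's mean, with colours ending at 1 in either direction. Under TMM scaling C replicates 3 and 4 have the highest mean log2 levels over the members (4.77 and 4.82), while C replicate 2 is at 4.53. The family sums overlap in the TPM as deposited, and a small set led by Mrps23 and Mrps18b is lowest in C.

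The first comparison sets A-C against C. Of the 77 members, 7 rose, 15 fell and 55 did not pass the test (limma, Benjamini-Hochberg adjusted over 11086 genes, threshold 0.05). Among all genes tested 9.71% rose and 7.17% fell, so the number that rose is near that background and the number that fell is above it. The median log2 change of the members was -0.21, against 0.03 for all genes tested. Single genes moved further, between 1.13 for Mrps18b and -0.78 for Mrps36. All log2 changes are of scaled TPM + 1, which understates changes of low genes.

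The balance of higher and lower members depended on the scaling. In the TPM as deposited 10 members rose and 3 fell, with a median of 0.0053, but there the median of all genes was 0.22, with 21.5% of genes higher and 3.64% lower. Scaled to the members themselves, 12 rose and 3 fell, with 17.1% of all genes higher and 3.46% lower. In the 4 scalings 52 to 56 of the 77 members lay below the median gene. A change of scaling moves members and median gene nearly alike, so this steadiness adds no support. The calls shared by all 4 scalings were Mrps23, Mrps18b, Mrps12, Mrps34, Mrpl3 and Mrpl44 as higher and Mrps36 and Mrpl2 as lower.

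The small subunit held the largest rises. Mrps23, a mitochondria-specific small subunit protein gene on chromosome 11 (88204388 to 88211507, mm10), had 12.2, 13.9 and 17.4 scaled TPM in A-C, against 5.92, 6.23 and 7.16 in C. Every A-C library was above every C library. The log2 change was 1.05 ± 0.17 (SE, adjusted p = 0.00754), and it passed in all 9 fits that left out 1 library, with 0.0428 as the highest adjusted p. Mrps18b, 1 of the paralogs of the S18 family of ribosomal proteins, had 12.04, 17.2 and 27.8 in A-C, against 6.07, 7.60 and 9.76 in C. The groups do not overlap, and the spread in A-C is wide, set mainly by replicate 12. Its log2 change was 1.13 ± 0.29 (SE, adjusted p = 0.0308), and the call was lost without A-C replicate 9 or 12 or C replicate 2 or 3, with adjusted p up to 0.0987.

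Mrps12 encodes the homolog of the bacterial protein at the decoding centre, which governs translational accuracy. It had 60.2, 69.9 and 84.0 scaled TPM in A-C, against 29.5, 43.8 and 49.4 in C, with no overlap. It rose by 0.81 ± 0.21 (log2, SE, adjusted p = 0.0303), a call lost without the same 4 libraries as that of Mrps18b, with adjusted p up to 0.0966. Mrps34, another mitochondria-specific small subunit gene, had 22.3, 19.4 and 19.7 in A-C, against 8.94, 14.3 and 15.0 in C. Its log2 change was 0.67 ± 0.18 (SE, adjusted p = 0.0371), but 77.8% of its exon bases are shared with Nme3 on the same strand or Mapk8ip3 on the other. Reads from these genes may not be separable, so the Mrps34 value is uncertain. The call was also lost in 6 of the 9 fits that each omitted a library, with adjusted p up to 0.103.

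In the large subunit the rises were smaller. Mrpl3, which encodes a homolog of the bacterial protein beside the peptidyl transferase centre, had 5.60, 5.62 and 6.16 scaled TPM in A-C, against 3.49, 3.70 and 3.60 in C. The groups lie well apart relative to their spread, with a log2 change of 0.56 ± 0.10 (SE, adjusted p = 0.0111). The call was lost only without C replicate 3 (adjusted p = 0.0527). Mrpl44, a large subunit protein with a ribonuclease III-type fold, rose by 0.49 (adjusted p = 0.0451), and Mrpl46, a mitochondria-specific protein, rose by 0.49 (adjusted p = 0.0473). Each of these calls was lost in 8 of the 9 fits that omitted a library.

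Of the members that fell, Mrps36 had the largest change. This gene on chromosome 13 (100735955 to 100744659) had 15.2, 13.6 and 12.3 scaled TPM in A-C, against 25.0, 24.03 and 23.7 in C. The groups do not overlap, the log2 change was -0.78 ± 0.12 (SE, adjusted p = 0.00624), and the call held in all 9 fits without 1 library, with 0.0352 as the highest adjusted p. The genes of the enzyme components that its protein joins did not pass the test: Ogdh had a log2 change of 0.15 (adjusted p = 0.506), Dlst 0.37 (adjusted p = 0.114) and Dld 0.43 (adjusted p = 0.081).

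Ribosomal genes with bacterial homologs made up 8 of the 15 that fell, 5 of 16 in the small subunit and 3 of 30 in the large. Mrps21 had 125, 116 and 101 scaled TPM in A-C, against 205, 187 and 174 in C, a log2 change of -0.72 ± 0.15 (SE, adjusted p = 0.0175). Mrpl2, whose protein lines the peptidyl transferase centre, had 64.6, 68.6 and 69.2 in A-C, against 99.5, 121 and 112 in C. Its log2 change was -0.70 ± 0.13 (SE, adjusted p = 0.011), and in both genes all A-C libraries were below all C libraries. Both calls were lost without A-C replicate 9 or C replicate 3, with adjusted p up to 0.0698 for Mrps21 and 0.0585 for Mrpl2. Mrps28, a relative of bacterial S1, fell by 0.65 (adjusted p = 0.0209), and Mrpl18, which sits at the central protuberance, fell by 0.58 (adjusted p = 0.0187). Mrps15 fell by 0.54 (adjusted p = 0.0223) and Mrpl33 by 0.49 (adjusted p = 0.0163). These 4 calls were lost without A-C replicate 9, C replicate 3 or C replicate 4. Mrps11 and Mrps10 completed this set with smaller changes.

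The others that fell encode mitochondria-specific proteins. Mrpl51 had 29.6, 32.2 and 33.5 scaled TPM in A-C, against 46.9, 48.2 and 48.0 in C, a log2 change of -0.57 (adjusted p = 0.0132). Mrpl57 fell by 0.53 (adjusted p = 0.0291) and Mrps33, in the small subunit, by 0.48 (adjusted p = 0.0454). Mrpl38, Mrpl39 and Mrpl48, with Mrps11 and Mrps10 named before, had log2 changes between -0.47 and -0.35, with adjusted p between 0.0387 and 0.0465. The Mrpl51 call was lost without A-C replicate 9 or C replicate 3, and the other 7 calls were lost in 4 to 9 of the 9 fits. Of the 15 members that fell, only Mrps36 and Mrpl2 were called in all 4 scalings. The 55 members that did not pass lay between -0.53 (Mrpl49) and 0.36 (Mrpl16).

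Many calls were lost when 1 library was left out, often with a change of similar size. Without C replicate 3 the log2 change was 0.87 for Mrps12 (adjusted p = 0.0808), 1.12 for Mrps18b (adjusted p = 0.0987) and 0.51 for Mrpl44 (adjusted p = 0.12), and the median of the members was -0.18. In counts, leaving out C replicate 3 kept 1 member higher and 1 lower, whereas leaving out C replicate 2 gave 2 and 11 and leaving out C replicate 4 gave 7 and 4. Of the A-C libraries, omission of replicate 9 gave 2 and 1, of replicate 12 gave 2 and 9, and of replicate 6 gave 4 and 13. M libraries enter this comparison through the shared spread, the scaling and the filter on low values. Omitting replicate 24 gave 5 and 12, omitting 26 gave 4 and 9, and omitting 27 gave 5 and 9. The share of all genes called in each of these fits was not taken, so a drop may not be particular to the members. The libraries of A-C and C did not overlap for 37 members, 8 higher and 29 lower, against 41.2% of all genes. Markers of other cells moved in the same comparison: 6 of 8 endothelial and 3 of 8 Kupffer cell markers rose, 1 of 8 hepatocyte markers fell, and all 3 tested B and plasma cell markers fell. Of the stellate cell markers 1 of 8 rose and 1 fell, of the erythroid markers 2 of 4 tested fell, and of the neutrophil markers 0 of 4 tested passed.

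Grouped by structure, the small subunit's bacterial homologs gave 1 higher and 5 lower of 16, with a median log2 change of -0.22. Its mitochondria-specific proteins gave 3 higher and 1 lower of 10, with a median of -0.14. Mrps34, whose value is uncertain through shared exon bases, is 1 of the 3. In the large subunit the bacterial homologs gave 1 higher and 3 lower of 30 (median -0.15), and the mitochondria-specific proteins 2 higher and 5 lower of 20 tested (median -0.35). Among all genes tested 9.71% rose and 7.17% fell. All 4 medians were negative under TMM scaling, whereas the median of all members was 0.0053 in the TPM as deposited. Differences between the classes were not tested. The members were also read against length: across the 77 genes the Spearman correlation of log2 change with exon length was 0.15, the same as across all genes, and genes are not independent replicates. The 19 members of up to 1500 bases had a median of -0.35, against -0.21 for all genes of that length.

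**Figure D2:**
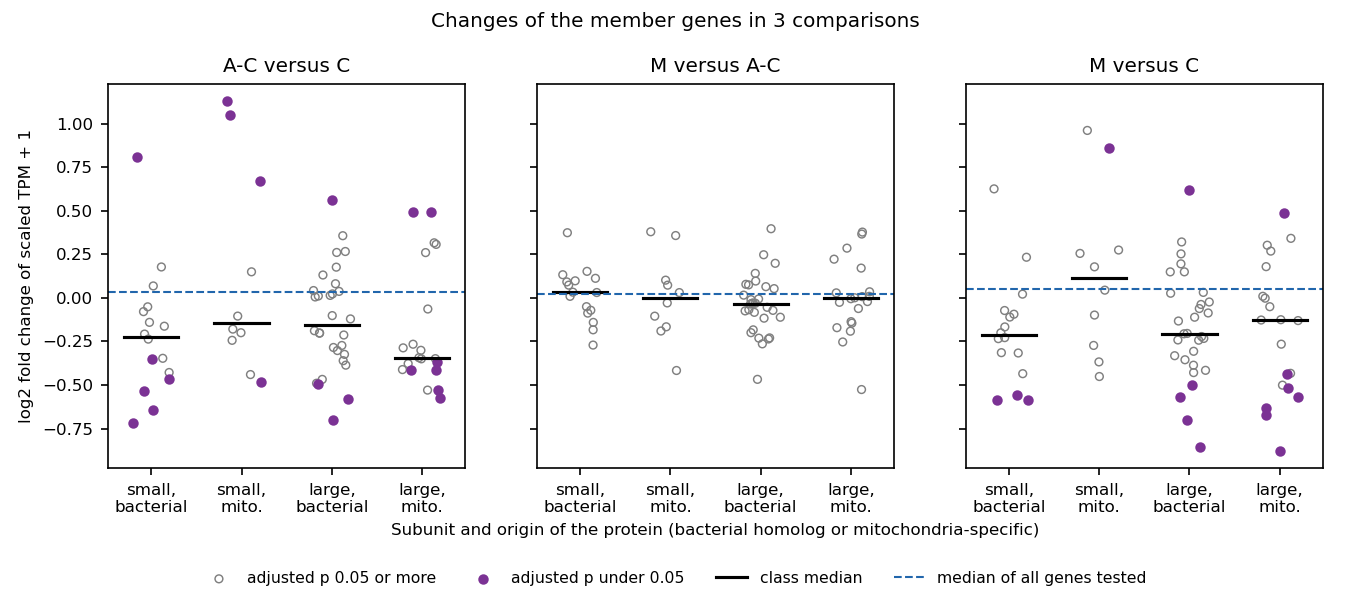
Log2 changes of scaled TPM + 1 (vertical axis) for members by subunit and origin (horizontal axis), 1 panel per comparison, with each point 1 gene, filled where adjusted p was under 0.05, black bars at class medians and a dashed line at the median of all genes. Filled points lie on both sides of 0 in A-C versus C and M versus C, and there are none in M versus A-C.

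The second comparison sets M against A-C. No member passed the test in either direction, with 0.224 as the smallest adjusted p (limma), and limma-voom on the recovered reads also called 0. At an unadjusted p under 0.05 there were 8 of the 77 members, against 1274 of all 11086 genes tested. Among all genes tested 0.0361% rose and 0.135% fell, which is 19 genes in all. The median log2 change of the members was -0.01, against 0.02 for all genes. A missed threshold does not show that M and A-C were alike.

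The 4 largest positive log2 changes were those of Mrpl2 with 0.40 (adjusted p = 0.274), Mrps22 with 0.38 (adjusted p = 0.543), Mrpl39 with 0.38 (adjusted p = 0.242) and Mrps9 with 0.37 (adjusted p = 0.282). Mrpl2 had 92.7, 89.7 and 85.0 scaled TPM in M, against 64.6, 68.6 and 69.2 in A-C, and Mrpl39 had 31.1, 33.2 and 33.3 in M, against 24.3, 24.9 and 25.1 in A-C. Neither pair of groups overlaps. The 4 largest negative log2 changes were those of Mrpl54 with -0.53 (adjusted p = 0.224), Mrpl23 with -0.47 (adjusted p = 0.43), Mrps34 with -0.42 (adjusted p = 0.433) and Mrps24 with -0.27 (adjusted p = 0.652). Mrpl54 had 52.7, 58.1 and 45.7 scaled TPM in M, against 77.3, 69.9 and 78.7 in A-C, again without overlap. The libraries of M and A-C did not overlap for 16 members, 9 higher and 7 lower, against 16.2% of all genes.

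The cytosolic ribosomal protein genes gave another picture in the same comparison. Of 82 tested, 0 passed in limma and 48 had an unadjusted p under 0.05, against 1274 of all 11086 genes tested. A negative log2 change was seen in 81, with a median of -0.39. The members had 36 positive and 41 negative changes and a median of -0.01. In M libraries the cytosolic genes summed to 25491, 25341 and 24800 scaled TPM, and in A-C libraries to 37607, 28552 and 33284. The members summed to 2449, 2423 and 2268 in M and to 2536, 2427 and 2354 in A-C. The cytosolic sums do not overlap and the member sums do. The difference between the lists was not tested.

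The third comparison sets M against C and shares the C libraries with the first, so its calls are no independent evidence for those given before. Of the 77 members 3 rose, 14 fell and 60 did not pass, against 9.31% of all genes higher and 6.72% lower. The median log2 change was -0.17, against 0.05 for all genes. Here too the balance turned with the scaling, with 13 higher and 2 lower in the TPM as deposited (26.4% and 3.17% of all genes, median of all genes 0.27, of members 0.11) and 10 higher and 4 lower scaled to the members (17.4% and 3.08% of all genes). In the 4 scalings 55 to 59 members lay below the median gene, a count that again adds no support. Mrps23, Mrpl3 and Mrpl44 as higher and Mrpl54 as lower were called in all 4.

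Mrpl54, a mitochondria-specific large subunit gene on chromosome 10 (81264713 to 81266934), had 52.7, 58.1 and 45.7 scaled TPM in M, against 85.5, 104 and 99.9 in C. Its log2 change was -0.88 ± 0.14 (SE, adjusted p = 0.00986), a call lost without M replicate 27 or C replicate 3, with adjusted p up to 0.0545. The A-C libraries lay between, at 77.3, 69.9 and 78.7, and A-C against C did not pass (-0.35, adjusted p = 0.115). Mrpl23, which encodes a protein at the exit of the peptide tunnel, had 10.3, 7.76 and 6.73 in M, against 18.5, 15.2 and 13.3 in C. Mrpl23 fell by 0.85 (adjusted p = 0.0283). The call was lost without M replicate 26 or 27 or C replicate 2 or 3, with adjusted p up to 0.115. Its pseudogene Mrpl23-ps1, with means of 1.14 in M and 2.14 in C, had a log2 change of -0.54 (adjusted p = 0.0404). How reads shared by the 2 were counted was not given.

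Other large subunit members fell with them. Mrpl27 had 77.9, 62.9 and 65.3 scaled TPM in M, against 96.5, 117 and 123 in C, and fell by 0.70 (adjusted p = 0.0278). Mrpl57 fell by 0.67 (adjusted p = 0.0166), Mrpl52 by 0.63 (adjusted p = 0.0242), Mrpl51 by 0.57 (adjusted p = 0.0158) and Mrpl18 by 0.57 (adjusted p = 0.0226). In all of these the libraries of M lie below those of C. In the small subunit Mrps21 and Mrps15 both fell by 0.59 (adjusted p = 0.0346 and 0.0189), and Mrps28 fell by 0.55 (adjusted p = 0.0361). The remaining 4, Mrpl33, Mrpl48, Mrps36 and Mrpl58, which encodes a peptidyl-tRNA hydrolase built into the ribosome, had log2 changes between -0.51 and -0.44 (adjusted p between 0.0179 and 0.0401). The calls in this paragraph were each lost in 2 to 6 of the 9 fits with a library omitted.

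On the higher side Mrps23 had 10.2, 12.9 and 14.5 scaled TPM in M, against 5.92, 6.23 and 7.16 in C, a log2 change of 0.86 ± 0.17 (SE, adjusted p = 0.0163). The call was lost without M replicate 27 or C replicate 2 or 3, with adjusted p up to 0.0727. Mrpl3 had 6.08, 5.73 and 6.34 in M, against 3.49, 3.70 and 3.60 in C, a log2 change of 0.62 ± 0.10 (SE, adjusted p = 0.00991), lost only without C replicate 3 (adjusted p = 0.0514). In both genes M lies above C in every library. Mrpl44 rose by 0.49 (adjusted p = 0.0486), a call lost in 8 of the 9 fits without 1 library. Mrps18b at 0.96 (adjusted p = 0.0522) and Mrps12 at 0.63 (adjusted p = 0.0669) did not pass, although their M and C libraries do not overlap.

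As to single libraries, 0 members were called once C replicate 3 was left out, although the median was still -0.14 and Mrpl54 was at -0.82 (adjusted p = 0.0545), and 1 higher and 0 lower once M replicate 27 was. Omission of M replicate 26 or of C replicate 4 gave 2 higher and 5 lower, of C replicate 2 gave 1 and 10, of A-C replicate 9 gave 2 and 8, and of A-C replicate 12 gave 5 and 18. The share of all genes called in these fits was not taken here either. The libraries of M and C did not overlap for 39 members, 10 higher and 29 lower, against 41.6% of all genes. Here 2 of 8 endothelial and 1 of 8 Kupffer cell markers rose, 1 of 8 hepatocyte markers rose and 1 fell, 1 of 8 stellate cell markers rose and 2 fell, and all 3 tested B and plasma cell markers fell.

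Mrps36 was called against C in A-C and in M, which share the C libraries. It had 17.5, 17.7 and 16.04 scaled TPM in M against 15.2, 13.6 and 12.3 in A-C. These groups do not overlap, but M versus A-C did not pass (0.30, adjusted p = 0.377).

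**Figure D3:**
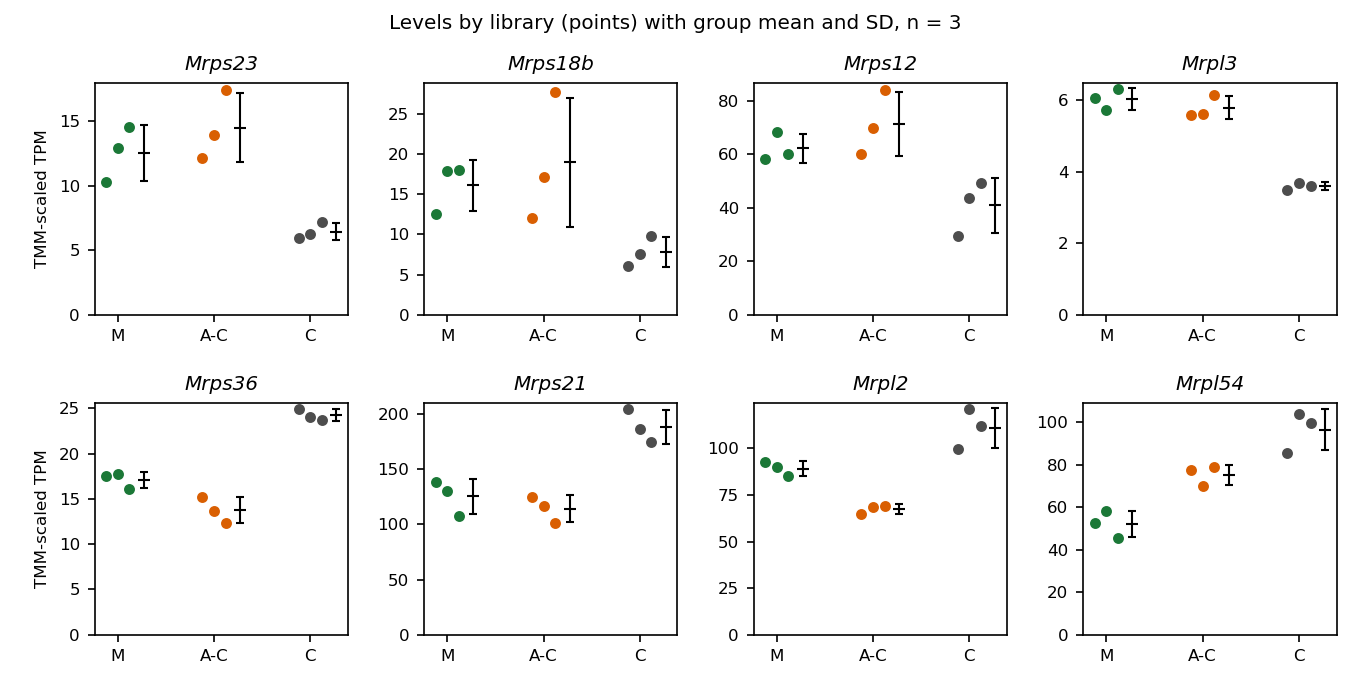
Scaled TPM (vertical axes, starting at 0) of 8 members in each library, with points as libraries of M, A-C and C and the black mark and bar as mean and SD (n = 3). Mrps23, Mrps18b, Mrps12 and Mrpl3 have their lowest values in C, whereas Mrps36, Mrps21, Mrpl2 and Mrpl54 have their highest there.

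Summed over the family, the scaled level was 2380 ± 98.1 TPM in M, 2439 ± 91.7 in A-C and 2850 ± 305 in C (SD, n = 3 each). The C libraries were uneven, at 2500, 2997 and 3054 for replicates 2, 3 and 4, so that C replicate 2 lies within the range of A-C. In the TPM as deposited the sums were 2569 ± 128 in M, 2543 ± 94.9 in A-C and 2538 ± 321 in C, or 0.257%, 0.254% and 0.254% of all TPM, which differ by less than the spread within groups. The lower family sum in M and A-C was seen under TMM scaling and not in the TPM as deposited.

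Mitochondrially encoded mRNAs, the templates of these ribosomes, took 14.5%, 12.6% and 12.4% of deposited TPM in M, 15.0%, 11.9% and 12.9% in A-C and 27.6%, 15.4% and 15.1% in C. C replicate 2 stands apart, and it also holds the lowest family sum as deposited, 2168. Of the 13 mitochondrial mRNAs 3 fell in A-C versus C and none passed in M versus C, with medians of -0.67 and -0.65. The share of these mRNAs moves the TPM of every other gene within a library, and its part in the member values was not tested.

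**Figure D4:**
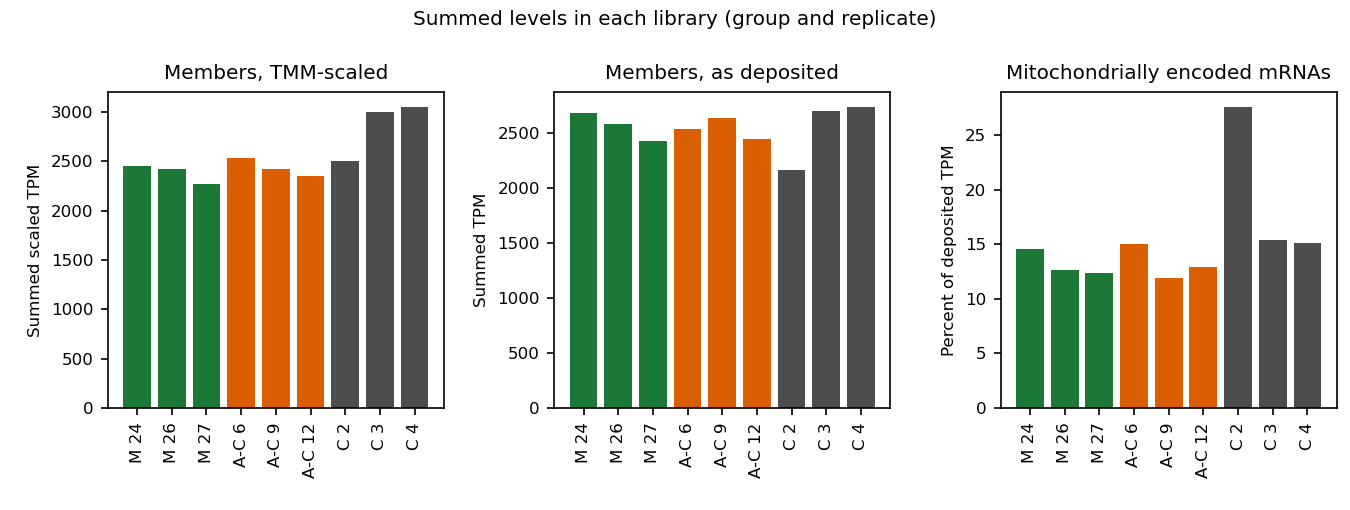
Bars from 0 for the 9 libraries (M, A-C, C): summed TMM-scaled TPM of the members, summed TPM of the members as deposited, and the percent of deposited TPM on mitochondrially encoded mRNAs. C replicates 3 and 4 are highest in the first panel (2997 and 3054), while the groups overlap in the second and C replicate 2 stands at 27.6% in the third.

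Genes that work with these ribosomes were read beside them, and most of their counts are near the 9.71% higher and 7.17% lower of all genes in A-C versus C and the 9.31% and 6.72% in M versus C. Of 27 assembly factors, 2 rose and 2 fell in A-C versus C: Ddx28, an RNA helicase of large subunit assembly, by 1.39 (adjusted p = 0.0376, with 51.8 scaled TPM in A-C replicate 12 against 15.1 and 20.7 in the other A-C libraries), and Dhx30 by 0.38 (adjusted p = 0.0304). Eral1, which chaperones the small subunit RNA, fell by 0.50 (adjusted p = 0.028) and Gtpbp10 fell by 0.42 (adjusted p = 0.0274). In M versus C Rpusd4 and Rbfa rose, by 0.63 and 0.52 (adjusted p = 0.0281 and 0.041), and no assembly factor fell. Of 15 translation factors 2 rose and none fell in A-C versus C, and the counts were the same in M versus C. Taco1, the activator of Cox1 translation, had 15.5, 13.3 and 17.3 scaled TPM in M, 13.1, 14.8 and 13.5 in A-C and 4.35, 6.81 and 8.11 in C. Its log2 change was 1.03 in A-C versus C (adjusted p = 0.0128) and 1.17 in M versus C (adjusted p = 0.0102). Gfm1, an elongation factor, changed by 0.77 (adjusted p = 0.0204) and 0.94 (adjusted p = 0.0137) in these comparisons.

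Of 20 mitochondrial aminoacyl-tRNA synthetases 1 rose in A-C versus C, Iars2 by 0.55 (adjusted p = 0.0246), and 2 rose in M versus C, Iars2 by 0.79 (adjusted p = 0.01) and Wars2 by 0.38 (adjusted p = 0.0496), with none lower. Among 14 genes of mitochondrial transcription and its nuclear regulators, Gabpa, a subunit of the ETS-type factor NRF-2, rose by 0.64 in A-C versus C (adjusted p = 0.0152) and by 0.79 in M versus C (adjusted p = 0.00986). Esrra, a nuclear receptor that drives mitochondrial genes, fell by 1.15 in A-C versus C (adjusted p = 0.0239). In M versus C Tfb2m rose by 0.45 (adjusted p = 0.0489) and Myc fell by 0.85 (adjusted p = 0.0496). Of the 5 mitoribosomal proteins whose symbols lie outside the naming rule, none passed in A-C versus C and Aurkaip1 fell by 0.54 in M versus C (adjusted p = 0.0257). No gene of any of these lists passed in M versus A-C.

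Under TMM scaling the nuclear respiratory chain genes, like the members, had more lower than higher in both comparisons with C. For the members this balance turned in the TPM as deposited and when scaled to the members. The respiratory chain genes were not counted in those scalings. Among all genes 9.71% rose and 7.17% fell in A-C versus C, and 9.31% rose and 6.72% fell in M versus C. The respiratory chain genes gave 1 higher and 22 lower of 77 in A-C versus C (median -0.37). In M versus C they gave 2 higher and 22 lower (median -0.31). Cytosolic ribosomal proteins had 4 higher and 3 lower of 82 in A-C versus C (median -0.01) and 0 higher and 23 lower in M versus C (median -0.35). In A-C versus C the members had 7 higher of 77, more than either list but near the 9.71% of all genes that rose. Their 15 lower and their median of -0.21 lay between these lists. These counts and medians use TMM scaling, and the lists were not tested against each other.

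Promoters of 69 of the 78 members were found in a RefSeq table (build GRCm38.p6), each running 250 bases before to 50 bases after the start of the gene. Motifs were searched by exact match on both strands: GCGCNTGCG for NRF1, CCGGAAG for ETS factors such as NRF-2, AAGATGGCG for YY1 and CACGTG as an E-box. Counts are of genes, and a gene with several promoter windows counts where any of them holds the motif. A gene with several motifs counts under each, whether or not they overlap. The ETS letters were found for 26 members (37.7%), against 20.9% of the genes tested that have an entry and 9.9% of all genes with a RefSeq promoter. The NRF1 letters were in 18 (26.1%), against 15.7% and 7.1%. The YY1 letters were in 8 (11.6%), against 3.9% and 1.6%, and the E-box in 5 (7.2%), against 12.2% and 8.1%. At least 1 of the 4 was in 45 (65.2%), against 42.8% and 22.7%. Of the 6 members higher in A-C that have an entry, 4 held the ETS letters and 2 the NRF1 letters, and of the 13 lower in A-C, 7 held ETS and 3 NRF1. A match describes letters in the window and no binding.

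The 250 bases before the RefSeq start are shown for 4 members called in A-C versus C, of which Mrps21 was not called in every scaling. The bases run 5′ to 3′ on the strand of the gene, with motif matches in capitals. Mrps23 (chr11:88204138-88204387, plus strand) and Mrpl3 (chr9:105053018-105053267, plus strand) rose, and Mrps36 (chr13:100744660-100744909, minus strand) and Mrps21 (chr3:95871515-95871764, minus strand) fell. The capitals mark the ETS letters in Mrpl3 and the NRF1 letters in Mrps21, and the bases shown for Mrps23 and Mrps36 hold no searched motif. RefSeq starts match those in the table for Mrps23 and Mrps36, and lie 29 bases from them for Mrpl3 and 5 bases for Mrps21. By the table the ETS letters of Mrpl3 lie after the start, inside the gene. The full windows of Mrps23 and Mrps21, with the 50 bases after the start that are not shown, each hold the ETS letters too. Both genes count among the members with them.
Mrps23: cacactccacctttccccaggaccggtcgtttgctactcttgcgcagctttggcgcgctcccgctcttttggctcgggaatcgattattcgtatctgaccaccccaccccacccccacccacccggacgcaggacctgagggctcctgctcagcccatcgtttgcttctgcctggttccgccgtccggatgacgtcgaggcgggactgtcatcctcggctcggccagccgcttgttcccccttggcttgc
Mrpl3: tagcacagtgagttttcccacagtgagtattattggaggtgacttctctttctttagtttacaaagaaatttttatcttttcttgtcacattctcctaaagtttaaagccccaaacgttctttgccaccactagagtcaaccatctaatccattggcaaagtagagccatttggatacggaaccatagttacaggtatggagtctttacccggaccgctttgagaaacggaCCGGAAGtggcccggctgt
Mrps36: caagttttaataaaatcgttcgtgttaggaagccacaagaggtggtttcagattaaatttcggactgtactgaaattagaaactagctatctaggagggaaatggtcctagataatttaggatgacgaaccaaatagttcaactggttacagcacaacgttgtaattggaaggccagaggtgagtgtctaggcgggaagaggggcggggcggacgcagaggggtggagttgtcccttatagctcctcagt
Mrps21: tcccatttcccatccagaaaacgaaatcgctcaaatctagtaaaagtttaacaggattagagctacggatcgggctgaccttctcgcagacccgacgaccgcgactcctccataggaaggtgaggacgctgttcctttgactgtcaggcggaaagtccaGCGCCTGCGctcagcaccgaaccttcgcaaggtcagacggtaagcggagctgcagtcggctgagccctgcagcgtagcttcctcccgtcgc

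Some members lie head to head with another gene. Starts of an oppositely transcribed gene lay within 1000 bases for 34 of the 77 tested members (44.2%), against 19.9% of all genes tested, and 26 such pairs had both genes tested. In A-C versus C 8 of the members in these pairs and 4 partners were called, with Mrps11 counted as the partner of Mrpl46, against 9.71% of all genes higher and 7.17% lower. Mrpl2 and Klc4, a kinesin light chain gene, fell together (log2 changes of -0.70 and -0.89, adjusted p = 0.011 and 0.0106). Mrpl44 rose by 0.49 while Wdfy1 fell by 0.71 (adjusted p = 0.0451 and 0.0273), and Mrps12 rose by 0.81 beside Sars2 with 0.14 (adjusted p = 0.509). These pairs were picked after their values were seen.

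One pair consists of members only. Mrpl46, for the large subunit, and Mrps11, for the small, are transcribed apart from a shared region on chromosome 7, and the pair was also picked after its values were seen. The sequences before both starts are shown because the genes share this region: Mrpl46 (chr7:78783090-78783339, minus strand) and Mrps11 (chr7:78782881-78783130, plus strand), whose windows share 41 bases. They precede the RefSeq starts, which lie 442 bases from the start in the table for Mrpl46 and 12 bases for Mrps11. By the table the whole Mrpl46 window lies inside that gene, and the distances between paired starts use the table. Capitals mark the YY1 letters, on the opposite strand, in Mrps11, and Mrpl46 holds no searched motif in its window.
Mrpl46: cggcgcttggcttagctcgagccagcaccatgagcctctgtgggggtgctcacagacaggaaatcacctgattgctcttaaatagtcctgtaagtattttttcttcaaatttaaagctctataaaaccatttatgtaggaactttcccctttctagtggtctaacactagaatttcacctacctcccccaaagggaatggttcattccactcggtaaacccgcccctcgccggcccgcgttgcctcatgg
Mrps11: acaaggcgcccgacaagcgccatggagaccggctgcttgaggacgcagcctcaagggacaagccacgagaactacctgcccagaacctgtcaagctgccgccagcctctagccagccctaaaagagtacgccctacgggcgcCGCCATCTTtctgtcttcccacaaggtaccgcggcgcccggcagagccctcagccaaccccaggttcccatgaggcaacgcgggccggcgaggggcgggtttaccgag

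Mrpl46 had 23.2, 24.4 and 24.7 scaled TPM in M, 25.7, 29.0 and 28.4 in A-C and 15.8, 19.9 and 23.0 in C. Mrps11 had 13.6, 14.5 and 14.8 in M, 15.0, 13.7 and 13.3 in A-C and 16.5, 21.3 and 21.6 in C. Mrpl46 was thus lowest and Mrps11 highest in C, without overlap in either gene. The log2 changes in A-C versus C were 0.49 (adjusted p = 0.0473) for Mrpl46 and -0.47 (adjusted p = 0.0417) for Mrps11, and in M versus C 0.30 (adjusted p = 0.172) and -0.44 (adjusted p = 0.0531). The Mrpl46 call was lost in 8 and the Mrps11 call in 6 of the 9 fits without 1 library.

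The ratio of Mrpl46 to Mrps11 within a library does not depend on the scaling between libraries. It was 1.70, 1.69 and 1.67 in M, 1.71, 2.12 and 2.14 in A-C and 0.958, 0.933 and 1.07 in C. Its means were 1.69 ± 0.0180 in M, 1.99 ± 0.241 in A-C and 0.986 ± 0.0702 in C (SD, n = 3 each), so that M and A-C lie apart from C by more than the spread within groups. No test is given since the pair was chosen for this pattern. The exons of the 2 genes share 173 bases on opposite strands, and since the use of strand in counting is not given, reads there cannot be assigned to either gene. In all, 23 members share exon bases with another gene, among them Mrps25 with 69.8% of its exon bases (Nr2c2), Mrpl19 with 36.0% and Mrpl43 with 33.4%.

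**Figure D5:**
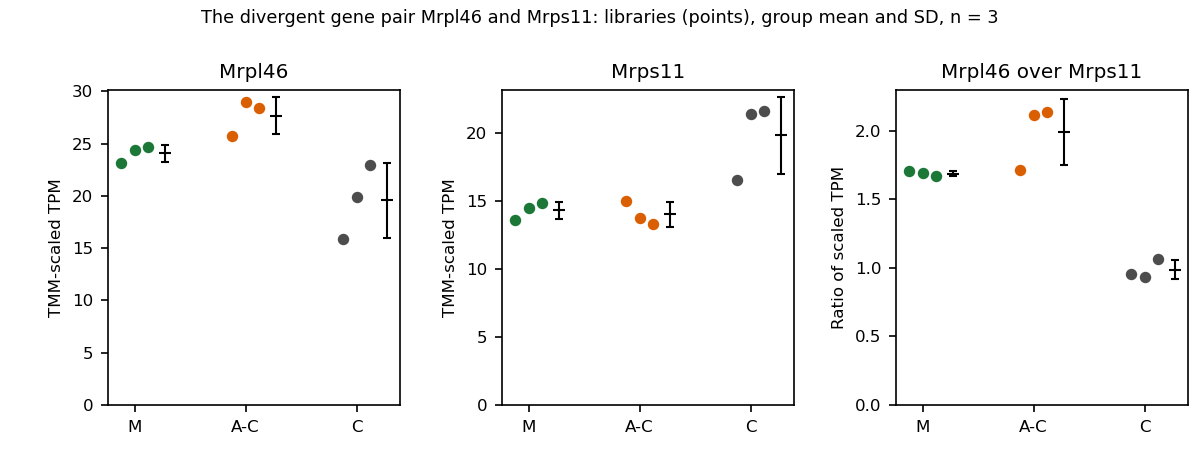
Scaled TPM of Mrpl46, of Mrps11, and their ratio (vertical axes from 0) in each library of M, A-C and C, with mean and SD (n = 3). The ratio lies between 1.67 and 2.14 in M and A-C and between 0.933 and 1.07 in C.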

How the data were processed

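Per the labels' protocols, liver RNA was isolated with Trizol before library preparation with a commercial kit. The deposited values are TPM, in a table of 32248 lines that the authors made. The genome build was mm10, per the submitters' processing notes, whereas aligner, counter, annotation, strand and the treatment of reads shared with pseudogenes were not given in the sources used here. Among these lines, 452 repeat 168 gene IDs under several symbols, and 1 line per ID was kept, which left 31964 genes.

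Dividing TPM times exon length by the smallest step in each library recovered reads, with 99.96% to 100.0% of values within 0.1 of a whole number. TMM factors came from these reads (30% of log ratios and 5% of mean levels trimmed). The divisor of TPM in each library was the product of the step above, the read total and the TMM factor. Divisors were then set to a geometric mean of 1. The divisors lay between 1.07 and 1.10 in M, 1.00 and 1.09 in A-C and 0.867 and 0.902 in C. Genes with a TPM of at least 1 in 3 of 9 libraries were tested (11086) by limma 3.58.1 (R 4.3.3) using the log2 of scaled TPM + 1, in 1 fit of 3 group means, trend and robust settings, and Benjamini-Hochberg adjustment over all genes tested at a threshold of 0.05. Groups follow the letters of the sample titles, and no batch is labelled.

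The members and lists were chosen with earlier results of these data known, so no list is tested. Named with values are the members called in a comparison (up to 10 a direction with their own values and the rest by range, or the 4 largest and 4 smallest changes where none was called), the 6 highest and 6 lowest levels, the 3 largest coefficients of variation, and up to 4 called genes of each other list. Promoters and head-to-head pairs were chosen after values were seen, as were the values of Mrps11 given with its pair, and the motifs for NRF1 and YY1 were shortened by 1 base after a first count. Exon overlaps come from the coordinates in the table. Scaling to the members, and members without exon overlap, were alternatives chosen after seeing the data.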

Additional observations from a re-analysis of the deposited data

How the results depend on the processing

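With pseudocount 0.1, limma-voom on recovered reads, limma without trend and robust settings, or a minimum of 5 TPM, none of the 39 single-gene calls was lost, and median-of-ratios scaling lost 1. No call reversed under any alternative. In the TPM as deposited A-C versus C gave 10 higher and 3 lower members with a median of 0.0053, and M versus C gave 13 and 2 with a median of 0.11. Scaled to the member genes, A-C versus C gave 12 and 3 with a median of -0.032, and M versus C gave 10 and 4 with a median of 0.018. These alternatives lost 24 and 22 of the 39 calls. Without a filter on low values A-C versus C gave 2 higher and 9 lower, and with only the 6 libraries compared it gave 3 and 9. The cause was not tested, and the share of all genes called under these settings was not taken. Over the 54 tested members without exon overlap 4 were higher and 11 lower in A-C versus C, with fewer genes counted by construction.

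Leaving out 1 library gave 1 to 7 higher, 1 to 13 lower and medians of -0.33 to -0.14 in A-C versus C, and 0 to 5 higher, 0 to 18 lower and medians of -0.26 to -0.10 in M versus C. M versus A-C kept 0 calls throughout, with medians of -0.03 to 0.01. Without C replicate 3, 37 of the 39 calls were lost. How many of all genes were called in these fits was not taken, so the losses may not be particular to the members. No paired analysis was possible because the groups share no replicate numbers. Mrpl19, the lowest detected member, averaged 3.59 scaled TPM, and at such levels the pseudocount of 1 shrinks changes most.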
